A study of Mus musculus with 6 samples.

Results

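The collagen chain genes of mouse were described here in Ppp6r3 cKO and wild-type testis. The 44 members are the protein-coding genes with a GENCODE M21 symbol made of Col, a type number and a chain number, among 54532 genes in the deposited table. All 44 were found, and 42 had enough fragments to be tested. Collagens are proteins of the extracellular matrix in which 3 chains wind into a triple helix built of Gly-X-Y triplets. Fibrillar collagens form the load-bearing fibrils of stroma. Type IV collagen forms the sheet-like network of basement membranes, which in testis surround the seminiferous tubules and the vessels. FACIT collagens (fibril-associated collagens with interrupted triple helices) sit on fibrils, multiplexins link basement membranes to stroma, and type VI collagen makes beaded filaments.

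Polyadenylated RNA of whole testis was sequenced from 3 Ppp6r3 cKO and 3 wild-type samples, all on postnatal day 9. The product of Ppp6r3 directs the protein phosphatase 6 enzyme to its targets, and cKO stands for conditional knockout. The labels name no Cre line and no deleted exons, give no strain for either genotype, and do not say if each library is a different animal. The p-values therefore cover only differences among these libraries, possibly technical ones. The series title names mRNA translation during spermatogonial differentiation. Levels were deposited as FPKM, which divides a gene's fragments by its exon length and by library depth. Their step size implies 15970909 to 16606868 fragments per library. Ppp6r3 had 15.8, 15.3 and 14.9 FPKM in the Ppp6r3 cKO libraries, against 20.8, 21.3 and 21 FPKM in the wild-type libraries, and all Ppp6r3 cKO libraries were lower (log2 fold change -0.45, limma adjusted p = 0.000695). This sum over all exons and all testis cells does not isolate the deleted part. Sertoli and germ cell markers were present in every library. Ppp6r3 cKO replicate 1 stood apart by GC content: its median deviation from the gene means ran from -0.11 on the log2 scale in the most AT-rich of 10 equal groups of genes to 0.13 in the most GC-rich. Wild-type replicate 3 ran the other way, from 0.056 to -0.064. In the most GC-rich group the medians were 0.13, 0.025 and 0.00027 in Ppp6r3 cKO libraries and -0.024, -0.037 and -0.064 in wild-type libraries. The GC trend thus went in part with genotype.

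Collagen transcripts were on balance more abundant in Ppp6r3 cKO testis. Of the 42 tested collagen genes, 18 rose, 2 fell and 22 did not pass (limma on log2(FPKM + 0.1), adjusted p under 0.05 over all 17658 genes tested). Sizes given after rose or fell are log2 fold changes on that scale. Members that rose made up 42.9%, where 7.67% of all genes tested rose and 15.5% passed in either direction. Those that fell were Col20a1 and Col6a5, where 7.86% of all genes tested fell. The median log2 fold change was 0.26 over the tested collagens and 0.00 over all genes tested. Among the tested members, 24 had all Ppp6r3 cKO libraries above all wild-type libraries (18.8% of all genes tested did) and 4 had them below (18.2% of all genes tested did). Of the fragments recovered from the FPKM values, collagen genes took 0.757% to 0.783% in Ppp6r3 cKO libraries and 0.613% to 0.628% in wild-type libraries. Their summed level was 935 to 979 FPKM in Ppp6r3 cKO libraries and 752 to 777 FPKM in wild-type libraries. FPKM is relative to each library. In whole tissue, a larger number of collagen-producing cells, less RNA from other cells and more collagen RNA per cell cannot be told apart.

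**Figure D1:**
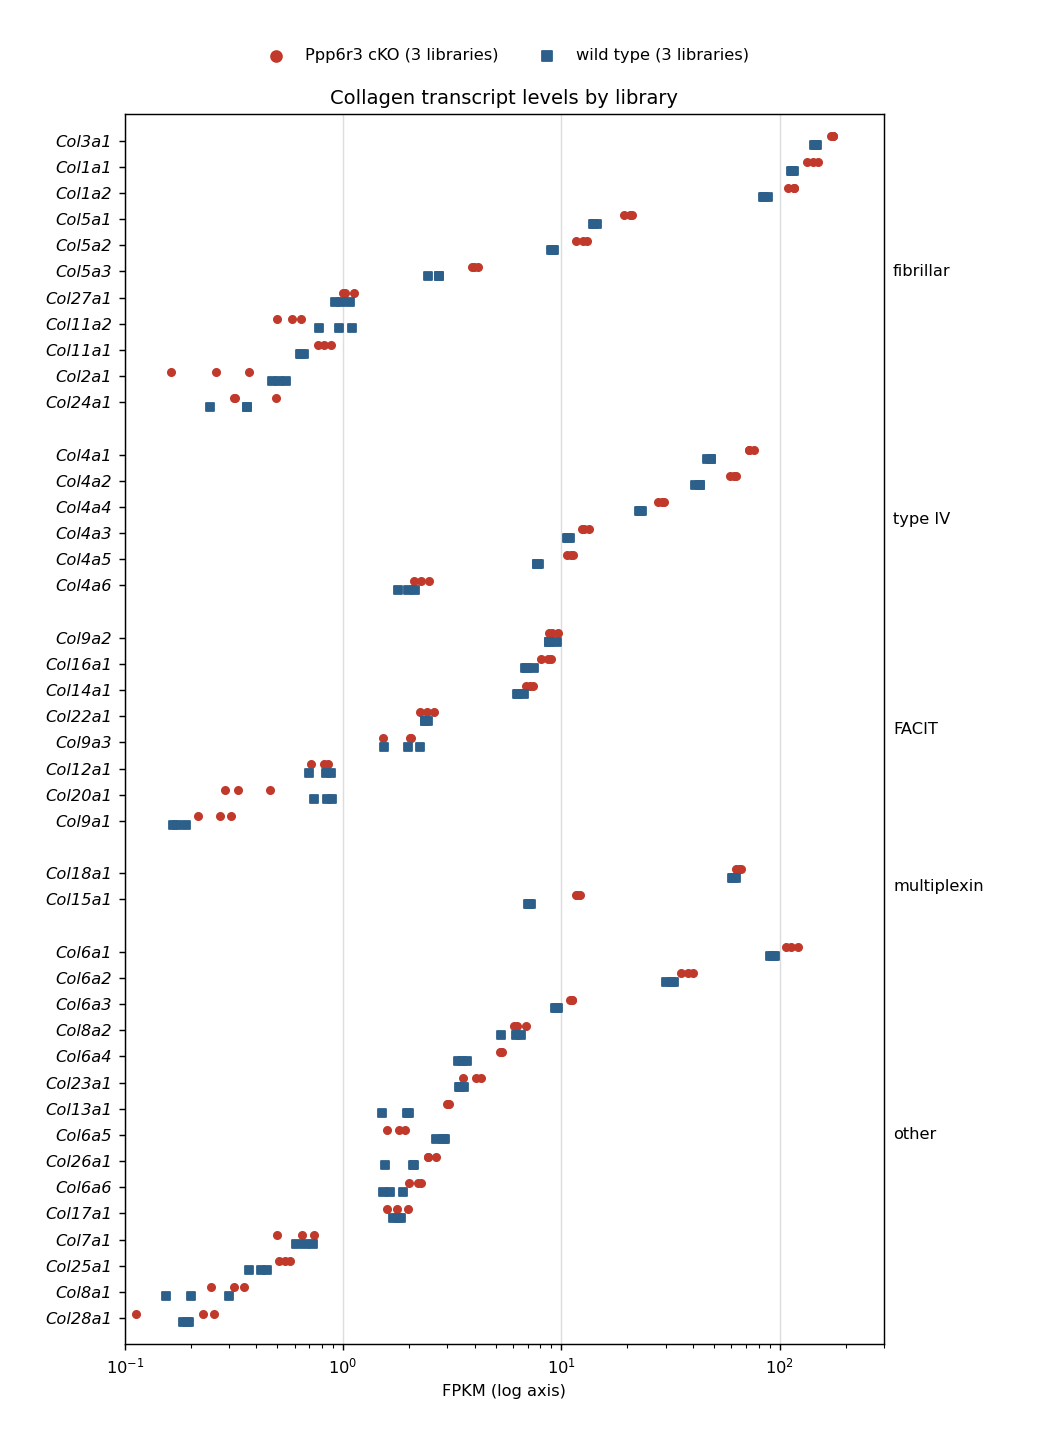
FPKM (log axis) of the 42 tested collagen genes in each library, with Ppp6r3 cKO as circles above wild type as squares, grouped by class and ordered by mean level within a class. Col3a1, Col1a1 and Col6a1 lead the levels, and most abundant members lie to the right in Ppp6r3 cKO, while Col20a1 and Col6a5 lie to the left.

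Collagen transcripts are rich in G and C, and calls moved with GC content over all genes. The median GC content was 55.0% over tested collagens, against 50.1% over all genes tested. The share of all genes tested that rose was 2.32% in the most AT-rich of the 10 groups and 15.8% in the most GC-rich, so the 7.67% is not matched to the collagens by GC content. After a GC and length correction of each library, 20 collagens passed, 16 higher and 4 lower, where 18.6% of all genes tested passed. With voom on recovered fragments, 20 were called higher and 4 lower, where 23.2% of all genes tested passed. The median log2 fold change over collagens was 0.18 after the GC and length correction. Without Ppp6r3 cKO replicate 1, 17 collagens were called higher and 3 lower, with a median of 0.24. The remaining libraries still differed by genotype in the most GC-rich group. With a pseudocount of 1 FPKM, which shrinks the change of low genes, the median was 0.15.

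**Figure D2:**
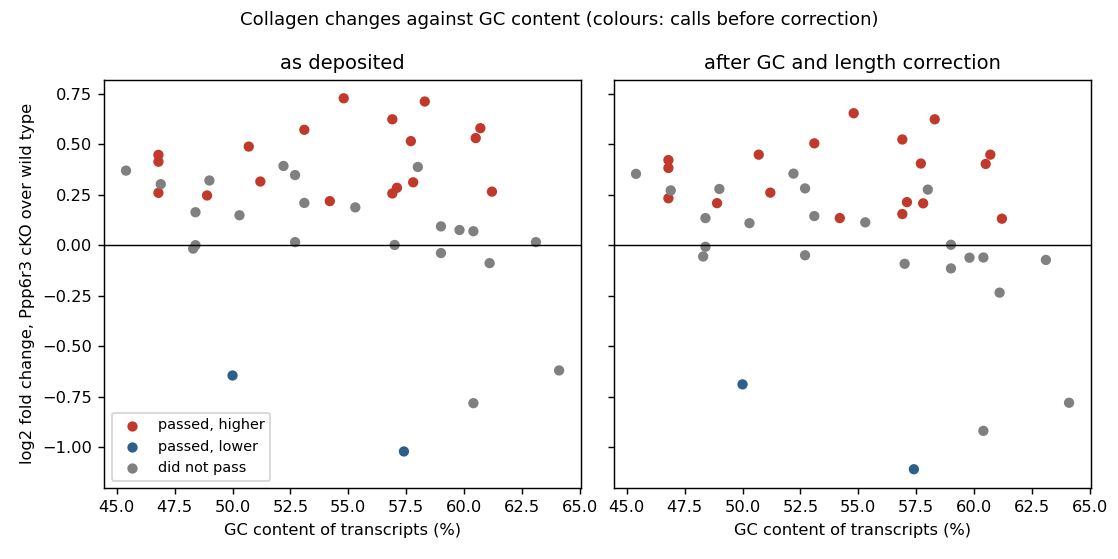
Log2 fold change of the 42 tested collagen genes against the GC content of their transcripts, as deposited (left) and after the GC and length correction (right), coloured by the call before correction. Changes of GC-rich members are lower on the right, where the median is 0.18 against 0.26 on the left.

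The fibrillar chains were the most abundant class, and the abundant fibrillar genes rose together. Of 11 fibrillar genes, 6 rose, 5 did not pass and none fell, where 7.67% of all genes tested rose and 7.86% fell. The class median of the log2 fold change was 0.30. These 6 were both type I genes, the type III gene and all 3 type V genes, and they were also the 6 most abundant of the class. Their SE was 0.033 to 0.082, against 0.137 to 0.236 in the 5 that did not pass. The split by call thus also went with precision. Col3a1, the single chain of type III collagen of soft stroma (chromosome 1, 45311538 to 45349706, plus strand of mm10), was the highest collagen in the tissue. It had 176, 176 and 172 FPKM in the Ppp6r3 cKO libraries, against 147, 146 and 144 FPKM in the wild-type libraries. The groups did not overlap, and Col3a1 rose by 0.26 (SE 0.033, limma adjusted p = 0.00255). Col1a1, the major chain of type I collagen (chromosome 11, 94936224 to 94953042, plus strand), had 149.7, 142 and 134 FPKM in the Ppp6r3 cKO libraries, against 116, 114 and 112 FPKM in the wild-type libraries. Ppp6r3 cKO replicate 1 was the highest of the 6 libraries, and Col1a1 rose by 0.31 (SE 0.046, limma adjusted p = 0.00461), or 0.21 after the GC and length correction. Col1a2, its partner chain (chromosome 6, 4504814 to 4541544, plus strand), had 116, 116 and 109 FPKM in the Ppp6r3 cKO libraries, against 87.9, 84.7 and 83.5 FPKM in the wild-type libraries. Col1a2 rose by 0.41 (SE 0.041, limma adjusted p = 0.000901).

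Type V collagen, which nucleates type I fibrils and sets their width, rose in all 3 of its genes. Col5a1 (chromosome 2, 27886425 to 28039514, plus strand) had 21.1, 20.6 and 19.4 FPKM in the Ppp6r3 cKO libraries, against 14.6, 13.9 and 14.1 FPKM in the wild-type libraries, and rose by 0.52 (SE 0.048, limma adjusted p = 0.000664). Col5a2 (chromosome 1, 45374321 to 45503282, minus strand), which lies beside Col3a1, had 11.7, 13.1 and 12.5 FPKM in Ppp6r3 cKO, against 9.25, 8.94 and 9.11 FPKM in wild type. It rose by 0.45 (SE 0.055, limma adjusted p = 0.0022). Col5a3, the least abundant of the 3 (chromosome 9, 20770050 to 20815067, minus strand), had 3.96, 4.13 and 3.904 FPKM in Ppp6r3 cKO, against 2.74, 2.74 and 2.45 FPKM in wild type, and rose by 0.58 (SE 0.082, limma adjusted p = 0.00406). None of these groups overlapped. Interstitial stroma markers other than collagens moved the same way: 5 of 14 rose and none fell, where 7.67% of all genes tested rose. The summed level of these markers was 265 to 272 FPKM in Ppp6r3 cKO libraries and 229 to 239 FPKM in wild-type libraries. Their part in the fibrillar result was not tested.

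The cartilage-type fibrillar genes were low in every library, and 2 of them lay on the other side. Col11a2, a chain of type XI collagen, had 0.50, 0.586 and 0.644 FPKM in Ppp6r3 cKO, against 1.09, 0.776 and 0.962 FPKM in wild type. The groups did not overlap, and the log2 fold change was -0.62 (limma adjusted p = 0.0516, not passing). Col2a1, the chain of type II collagen of cartilage, had 0.37, 0.162 and 0.261 FPKM in Ppp6r3 cKO, against 0.508, 0.548 and 0.474 FPKM in wild type, with a log2 fold change of -0.78 (limma adjusted p = 0.0598, not passing). Both were named after their values were seen. They rested on 56 to 124 and 24 to 84 fragments per library, and after the GC and length correction both were called lower (-0.78 and -0.92, adjusted p = 0.0267 and 0.026). Col11a1, the partner of Col11a2, had 0.766, 0.884 and 0.817 FPKM in Ppp6r3 cKO, against 0.643, 0.634 and 0.663 FPKM in wild type, and did not pass (log2 fold change 0.30). Col24a1 (0.16) and Col27a1 (0.08) had groups that overlapped.

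**Figure D3:**
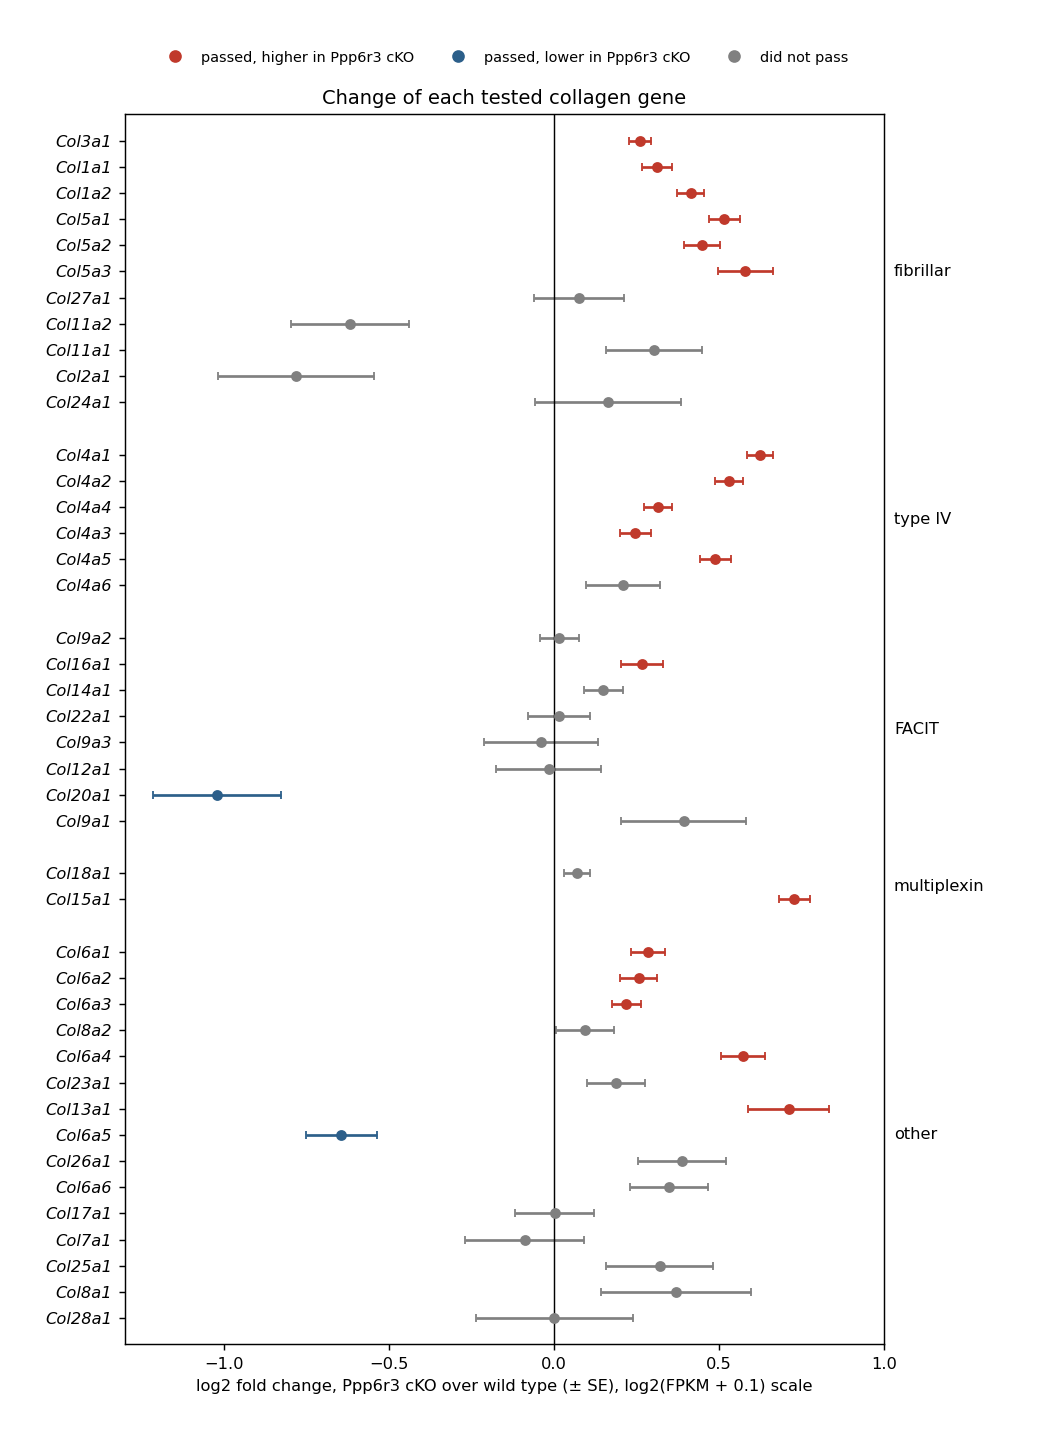
Log2 fold change of Ppp6r3 cKO over wild type with its standard error for the 42 tested collagen genes, by class, coloured by whether the limma test passed and in which direction. The 18 members that rose lie between 0.22 and 0.73, and the members that fell are Col20a1 at -1.02 and Col6a5 at -0.64.

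All 6 type IV genes had a positive log2 fold change, and 5 of them rose, where 7.67% of all genes tested rose. Type IV genes lie head to head in 3 pairs on 3 chromosomes, each pair read away from a shared start region. In the annotation, the starts of Col4a1 and Col4a2 overlap by 22 bases, those of Col4a3 and Col4a4 are 71 bases apart, and those of Col4a5 and Col4a6 are 1308 bases apart. The short shared start regions of the first pairs are printed on the plus strand (RefSeq sequence, GRCm38.p6), with a GC box (GGGCGG) in capitals where there is one.
Col4a1 and Col4a2 start overlap, chr8:11312805-11312826: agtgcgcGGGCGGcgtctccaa
Col4a3 and Col4a4 start gap, chr1:82586850-82586920: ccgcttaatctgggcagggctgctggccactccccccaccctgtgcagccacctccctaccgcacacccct

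Col4a1 and Col4a2 encode the chains of the type IV network found in nearly every basement membrane, and both rose. Col4a1 (chromosome 8, 11198423 to 11312826, minus strand) had 72.1, 76.3 and 72.2 FPKM in the Ppp6r3 cKO libraries, against 48.2, 46.6 and 48.3 FPKM in the wild-type libraries. The groups did not overlap, and Col4a1 rose by 0.62 (SE 0.039, limma adjusted p = 0.000139). Col4a2 (chromosome 8, 11312805 to 11449287, plus strand) had 63.1, 61.5 and 59 FPKM in the Ppp6r3 cKO libraries, against 43.2, 42.9 and 40.8 FPKM in the wild-type libraries, and rose by 0.53 (SE 0.042, limma adjusted p = 0.000381). After the GC and length correction the values were 0.52 for Col4a1 and 0.40 for Col4a2, both called. The ratio of Col4a1 to Col4a2 was 1.14, 1.24 and 1.22 in the Ppp6r3 cKO libraries and 1.11, 1.09 and 1.18 in the wild-type libraries, and the groups overlapped.

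Col4a3, Col4a4 and Col4a5 encode the chains of the specialised network of the kidney glomerulus, which is also known in testis. Col4a4 (chromosome 1, 82448423 to 82586849, minus strand) had 27.6, 29.4 and 28.8 FPKM in Ppp6r3 cKO, against 22.5, 22.9 and 23.4 FPKM in wild type, and rose by 0.32 (SE 0.042, limma adjusted p = 0.00308). Its partner Col4a3 (chromosome 1, 82586921 to 82722059, plus strand) had 12.4, 12.7 and 13.4 FPKM in Ppp6r3 cKO, against 10.7, 10.6 and 10.98 FPKM in wild type. Col4a3 rose by 0.25 (SE 0.048, limma adjusted p = 0.0131), a call that was lost without wild-type replicate 2. Col4a5, on the X chromosome (chromosome X, 141475385 to 141689234, plus strand), had 10.6, 11 and 11.3 FPKM in Ppp6r3 cKO, against 7.897, 7.74 and 7.74 FPKM in wild type, and rose by 0.49 (SE 0.048, limma adjusted p = 0.000886). Its partner Col4a6 (chromosome X, 141165403 to 141474076, minus strand) was the lowest of the class, with 2.28, 2.46 and 2.12 FPKM in Ppp6r3 cKO, against 1.77, 1.99 and 2.14 FPKM in wild type. Wild-type replicate 3 lay above Ppp6r3 cKO replicate 3, so the groups overlapped, and Col4a6 did not pass (log2 fold change 0.21, limma adjusted p = 0.244).

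Some proportions within the class separated the genotypes. The ratio of Col4a1 to Col4a3 was 5.84, 5.99 and 5.41 in the Ppp6r3 cKO libraries and 4.49, 4.39 and 4.4 in the wild-type libraries. The ratio of Col4a5 to Col4a6 was 4.67, 4.46 and 5.33 in the Ppp6r3 cKO libraries and 4.45, 3.89 and 3.62 in the wild-type libraries. The ratio of Col4a1 to Col4a3 did not overlap between genotypes. That of Col4a5 to Col4a6 was nearly tied, at 4.46 in Ppp6r3 cKO replicate 2 and 4.45 in wild-type replicate 1. Col4a6 rested on 235 to 314 fragments per library. The ratio of Col4a4 to Col4a3 did overlap, at 2.23, 2.31 and 2.15 in the Ppp6r3 cKO libraries and 2.1, 2.16 and 2.13 in the wild-type libraries. Of the summed collagen FPKM, type IV genes made up 19.2% to 20.2% in Ppp6r3 cKO libraries and 17.3% to 17.7% in wild-type libraries. These ratios were chosen after the values were seen and were not tested.

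**Figure D4:**
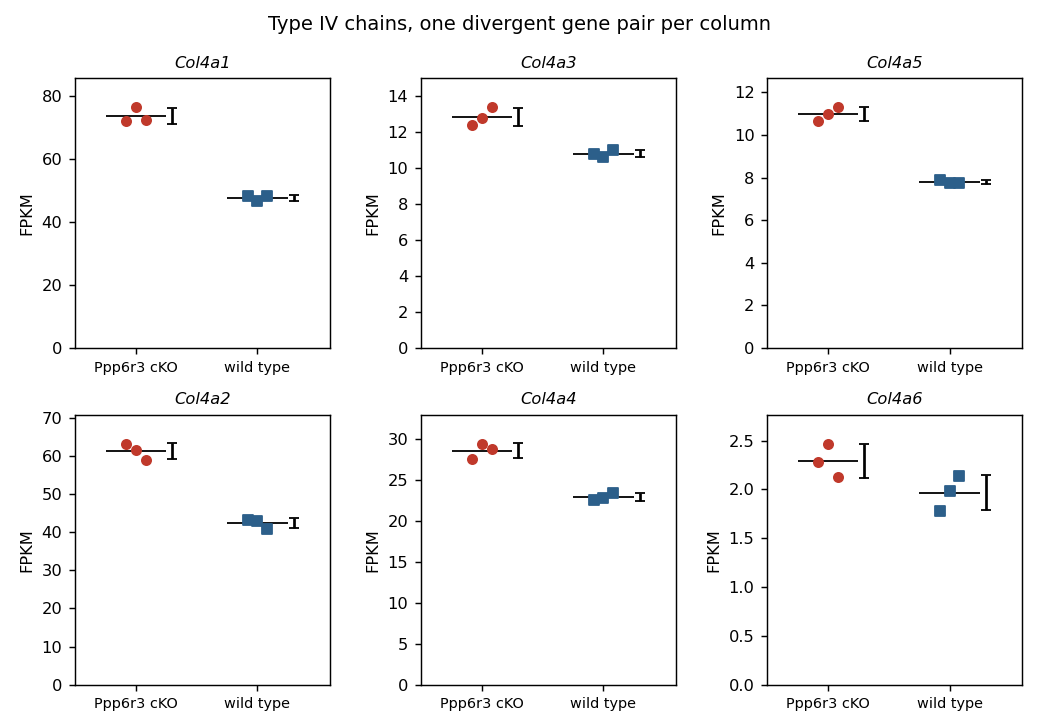
FPKM of the 6 type IV genes in each library, one divergent gene pair per column, with Ppp6r3 cKO left of wild type, the horizontal line at the mean and the bar showing ± SD of 3 libraries. The groups are separate for all but Col4a6.

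Endothelial markers and other basement membrane genes also had members that rose and none that fell. Of 15 endothelial markers 8 rose and none fell, with a median log2 fold change of 0.38, where 7.67% of all genes tested rose. The summed level of these markers was 95.08 to 105 FPKM in Ppp6r3 cKO libraries and 67.92 to 72.93 FPKM in wild-type libraries. None of the 15 was at 0. Their part in the type IV result was not tested. Of 15 other basement membrane genes (laminins, nidogens and large proteoglycans) 7 rose and 8 did not pass, none falling, at a median of 0.31. Lamc3, a laminin chain, rose by 0.62 with 51.97, 50.1 and 48.2 FPKM in Ppp6r3 cKO, against 31.9, 32.6 and 32.8 FPKM in wild type. Lamb1, another laminin chain, rose by 0.52 and Hspg2, which encodes perlecan, by 0.51 (limma adjusted p = 0.000447 and 0.00262). Perlecan was highest in Ppp6r3 cKO replicate 1, at 33.2 FPKM.

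The multiplexins, which carry the angiogenesis inhibitors restin and endostatin at their ends, differed in their calls. Col15a1 (chromosome 4, 47208161 to 47313167, plus strand) had 12.2, 11.7 and 11.7 FPKM in the Ppp6r3 cKO libraries, against 7.12, 7.22 and 7.02 FPKM in the wild-type libraries. It rose by 0.73 (SE 0.047, limma adjusted p = 0.00015), the largest rise of any tested collagen, and by 0.65 after the GC and length correction. Col18a1, the source of endostatin (chromosome 10, 77052178 to 77166548, minus strand), had 66.4, 64.9 and 62.8 FPKM in the Ppp6r3 cKO libraries, against 63.1, 61.1 and 60.5 FPKM in the wild-type libraries. The groups overlapped and Col18a1 did not pass (log2 fold change 0.07, SE 0.038, limma adjusted p = 0.256). The ratio of Col15a1 to Col18a1 was 0.183, 0.181 and 0.186 in the Ppp6r3 cKO libraries and 0.113, 0.118 and 0.116 in the wild-type libraries, with no overlap. The ratio was not tested.

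Among 8 tested FACIT genes 1 rose (12.5%), 1 fell and 6 did not pass, where 7.67% of all genes tested rose and 7.86% fell. These FACIT counts were near those shares. The median log2 fold change over the tested FACIT genes was 0.02. Col16a1 (chromosome 4, 130047840 to 130099283, plus strand) had 8.92, 8.695 and 8.03 FPKM in Ppp6r3 cKO, against 6.93, 7.5 and 6.84 FPKM in wild type, and rose by 0.27 (SE 0.063, limma adjusted p = 0.0268). Col16a1 did not pass after the GC and length correction (0.13), nor with no filter on low values, nor without Ppp6r3 cKO replicate 1 or 2 or wild-type replicate 1 or 3. Col20a1, a FACIT of little-known function (chromosome 2, 180986535 to 181018363, plus strand), had the largest fall. It had 0.463, 0.329 and 0.289 FPKM in the Ppp6r3 cKO libraries, against 0.843, 0.738 and 0.889 FPKM in the wild-type libraries. All Ppp6r3 cKO libraries were lower, and Col20a1 fell by 1.02 (SE 0.193, limma adjusted p = 0.0119), on 24 to 73 fragments per library. With a pseudocount of 1 the value was -0.42, and with no filter on low values Col20a1 did not pass. Col9a2, a chain of type IX collagen of cartilage fibrils, was the most abundant of the class, with overlapping groups of 8.75, 9.603 and 9.07 FPKM in Ppp6r3 cKO, against 9.55, 8.76 and 8.8 FPKM in wild type (log2 fold change 0.02, SE 0.059, limma adjusted p = 0.881). Col14a1, which sits on stromal fibrils and was named after its values were seen, had 7.19, 6.85 and 7.404 FPKM in Ppp6r3 cKO, against 6.302, 6.75 and 6.27 FPKM in wild type. Its groups did not overlap, though it did not pass (log2 fold change 0.15, limma adjusted p = 0.128). Col9a1 (0.39), Col9a3 (-0.04), Col12a1 (-0.02) and Col22a1 (0.02) did not pass.

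Type VI collagen, the beaded filament that joins cells and basement membranes to stroma, had members called in both directions. Of its 6 genes 4 rose, 1 fell and 1 did not pass, where 7.67% of all genes tested rose and 7.86% fell. Col6a1 (chromosome 10, 76708792 to 76726168, minus strand) had 121, 106 and 112 FPKM in the Ppp6r3 cKO libraries, against 94.7, 92.8 and 90.6 FPKM in the wild-type libraries, and rose by 0.28 (SE 0.050, limma adjusted p = 0.00911). Col6a2 (chromosome 10, 76595762 to 76623630, minus strand) had 39.99, 35.3 and 37.9 FPKM in Ppp6r3 cKO, against 32.8, 31.7 and 30.2 FPKM in wild type, and rose by 0.26 (limma adjusted p = 0.0187), or 0.15 after the GC and length correction. Col6a3, which completes the common heterotrimer (chromosome 1, 90765923 to 90843971, minus strand), had 11.2, 10.9 and 11.2 FPKM in Ppp6r3 cKO, against 9.66, 9.36 and 9.53 FPKM in wild type, and rose by 0.22 (limma adjusted p = 0.015). The call of Col6a2 was lost with no filter on low values and without Ppp6r3 cKO replicate 3 or wild-type replicate 2 or 3. The call of Col6a3 was lost without wild-type replicate 2 or 3 and after the GC and length correction (0.14, adjusted p = 0.0567).

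The remaining type VI genes lie in a row on chromosome 9 and encode chains that can stand in for the Col6a3 product. Col6a4 and Col6a5 moved in opposite directions. Col6a4 (chromosome 9, 105989454 to 106096783, minus strand) had 5.25, 5.33 and 5.26 FPKM in the Ppp6r3 cKO libraries, against 3.69, 3.52 and 3.36 FPKM in the wild-type libraries, and rose by 0.57 (SE 0.067, limma adjusted p = 0.00178). Col6a5 (chromosome 9, 105856078 to 105960643, minus strand) had 1.93, 1.801 and 1.58 FPKM in the Ppp6r3 cKO libraries, against 2.92, 2.86 and 2.66 FPKM in the wild-type libraries. No libraries overlapped, and Col6a5 fell by 0.64 (SE 0.108, limma adjusted p = 0.00756). Both calls held without each library in turn. Col6a6, at the other end of the row, had 2.28, 2.21 and 2.01 FPKM in Ppp6r3 cKO, against 1.88, 1.64 and 1.53 FPKM in wild type and did not pass (log2 fold change 0.35, limma adjusted p = 0.0833).

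Of the 4 transmembrane collagens only Col13a1 passed, where 15.5% of all genes tested passed in either direction. Col13a1, known at the neuromuscular junction and in cell adhesion (chromosome 10, 61838236 to 61979108, minus strand), had 3.03, 3.06 and 2.99 FPKM in the Ppp6r3 cKO libraries, against 1.96, 1.505 and 1.999 FPKM in the wild-type libraries. It rose by 0.71 (SE 0.123, limma adjusted p = 0.00838), and its Ppp6r3 cKO libraries were nearly equal while wild-type replicate 2 was the lowest. Col23a1 (0.19), Col25a1 (0.32) and Col17a1, the hemidesmosome collagen of skin (0.00), did not pass. None of the short chain genes Col8a1 (0.37) and Col8a2 (0.09) passed, nor did Col26a1 (0.39), Col28a1 (0.00) or Col7a1 of the anchoring fibrils of skin (-0.09). Col10a1, the collagen of hypertrophic cartilage, and Col19a1 were not tested: they had 0 to 4 and 0 to 3 fragments per library.

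Chains that share a fibril were compared as ratios of FPKM within each library. The ratio of Col1a1 to Col1a2 was 1.29, 1.22 and 1.22 in the Ppp6r3 cKO libraries and 1.32, 1.35 and 1.35 in the wild-type libraries, lower in every Ppp6r3 cKO library. The ratio of Col5a1 to Col1a1 was 0.141, 0.145 and 0.145 in the Ppp6r3 cKO libraries and 0.126, 0.122 and 0.125 in the wild-type libraries, higher in every Ppp6r3 cKO library. The ratio of Col6a1 to Col6a2 was 3.02, 3.01 and 2.96 in the Ppp6r3 cKO libraries and 2.89, 2.93 and 3.0 in the wild-type libraries, and overlapped. FPKM divides by the exons of all transcripts of a gene, so the size of a ratio depends on the annotation, while the fold of a ratio between genotypes does not. Fibrillar genes made up 48.5% to 49.6% in Ppp6r3 cKO libraries and 49% to 49.1% in wild-type libraries as shares of summed collagen FPKM. Multiplexins made up 7.96% to 8.02% in Ppp6r3 cKO libraries and 8.98% to 9.04% in wild-type libraries. The ratios were not tested.

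The coding sequences of all members hold rows of Gly-X-Y triplets. In 1 transcript per gene (GENCODE M21), the longest unbroken row of Gly-X-Y triplets was 216 to 344 triplets in fibrillar genes, 39 to 66 in type IV genes, 32 to 113 in FACIT genes, 30 in both multiplexins and 23 to 87 in the other genes. The fibrillar range lies above all others, while those of the remaining classes are not set apart from each other. The shortest row of any member was 23, in Col26a1. Of 14729 other tested protein-coding genes, 13 had a row at least that long.

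Many members also shared a sequence in their 3′ UTRs. The miR-29 family is known in mouse and human fibroblasts to lower collagen mRNAs by pairing of its seed with their 3′ UTRs. The mature sequences (RefSeq, GRCm38.p6) have the seed, bases 2 to 8, in capitals, and all share it.
mmu-miR-29a-3p: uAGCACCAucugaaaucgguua
mmu-miR-29b-3p: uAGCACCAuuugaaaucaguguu
mmu-miR-29c-3p: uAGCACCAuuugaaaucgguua

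The seed match TGGTGCT was searched on the transcript strand in the 3′ UTR of 1 transcript per gene. It occurred in 24 of the 42 tested collagens (57.1%) and in 13.6% of all 14690 tested genes with an annotated 3′ UTR, at a median UTR length of 920.5 bases in collagens and 937 in all. All 6 type IV genes held it, as did 9 of 11 fibrillar genes, 3 of 9 FACIT genes, 1 of 2 multiplexins and 5 of 16 other genes. The match thus went in part with class, and match and class were not separated. Over all genes tested, with or without a match, 7.67% rose and 7.86% fell. Of the 24 collagens with a match, 14 rose and none fell, with a median log2 fold change of 0.31. Of the 18 without, 4 rose (Col1a2, Col6a1, Col6a4 and Col13a1) and 2 fell, with a median of 0.082. Over the 14690 tested genes with an annotated 3′ UTR, the median was 0.046 with a match and 0.006 without. Mature microRNAs were not measured here, and a match is no evidence of use. Sites of 7 members that rose, one per gene, are printed from the transcript strand to show the shared match (GENCODE M21, GRCm38), with the seed match in capitals.
Col15a1, chr4:47312489-47312517, plus strand: aatccacatatTGGTGCTagattctgcag
Col4a1, chr8:11199751-11199779, minus strand: ccgtcacaacaTGGTGCTactcccccccc
Col4a2, chr8:11448348-11448376, plus strand: gaaggccacgtTGGTGCTtatccttctgt
Col5a1, chr2:28037993-28038021, plus strand: ctatgaacattTGGTGCTgaattttttac
Col4a5, chrX:141688242-141688270, plus strand: gctcccaccaaTGGTGCTaatatcctcta
Col1a1, chr11:94952527-94952555, plus strand: gaaggaatttcTGGTGCTatagaagctga
Col3a1, chr1:45348971-45348999, plus strand: aaatgtctcaaTGGTGCTataataaataa

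Start regions were searched on both strands for 3 motifs, in windows from 250 bases before to 50 after each RefSeq start (GRCm38.p6). The TATA box was searched as TATAAA. The CCAAT box was searched as its name spells. The GC box was searched as GGGCGG. The 35 collagens in the table had 38 windows. A GC box was in 60.5% of the collagen windows and in 35.7% of all 32851 windows, a CCAAT box in 34.2% and 37.4%, and a TATA box in 13.2% and 13.6%. A GC box was in 22 of the 35 collagens with a window, and in 9 of the 15 of them that rose. The 250 bases before the start are printed for Col3a1 and Col5a1, with the motifs in capitals, because both genes rose and their windows hold different motifs. In Col3a1 the letters TATAAA lie 112 to 117 bases before the start, farther away than a working TATA box usually lies. In Col5a1 the GC box matches lie 68 to 73 and 200 to 205 bases before the start. A match is a description and no evidence that a factor binds.
Col3a1, chr1:45311288-45311537, plus strand: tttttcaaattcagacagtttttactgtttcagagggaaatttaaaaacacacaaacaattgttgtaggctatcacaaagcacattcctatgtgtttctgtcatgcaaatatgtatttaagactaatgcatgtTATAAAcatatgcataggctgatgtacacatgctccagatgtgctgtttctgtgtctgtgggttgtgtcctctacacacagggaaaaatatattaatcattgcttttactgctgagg
Col5a1, chr2:27886175-27886424, plus strand: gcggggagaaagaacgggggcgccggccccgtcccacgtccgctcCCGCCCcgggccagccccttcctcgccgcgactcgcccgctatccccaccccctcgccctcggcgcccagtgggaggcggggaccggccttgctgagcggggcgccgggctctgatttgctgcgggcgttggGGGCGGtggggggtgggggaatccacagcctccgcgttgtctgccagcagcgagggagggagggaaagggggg

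Genes that modify, fold and export procollagen were called in both directions. Of 28 such genes 2 rose (7.67% of all genes tested did), 4 fell (7.86% of all genes tested did) and 22 did not pass, and the median log2 fold change was 0.01. Serpinh1, the collagen chaperone HSP47, had 142, 133 and 132 FPKM in Ppp6r3 cKO, against 125, 122 and 119 FPKM in wild type and rose by 0.15 (limma adjusted p = 0.0419), a call lost whichever single library was left out. P3h3, a prolyl 3-hydroxylase family member, rose by 0.31 with 12.5, 10.9 and 12.8 FPKM in Ppp6r3 cKO, against 10.1, 9.88 and 8.99 FPKM in wild type (limma adjusted p = 0.0272), which did not pass after the GC and length correction or without 4 of the 6 libraries. Hspa5, which encodes BiP, a general chaperone of the endoplasmic reticulum, had 113, 121 and 125 FPKM in Ppp6r3 cKO, against 163, 163 and 162 FPKM in wild type, and fell by 0.45 (limma adjusted p = 0.00081). Calr, which encodes the chaperone calreticulin, fell by 0.39 with 153, 145 and 149 FPKM in Ppp6r3 cKO, against 197, 194 and 193 FPKM in wild type (limma adjusted p = 0.000675). Mia3, which encodes the procollagen export receptor TANGO1, fell by 0.18 (limma adjusted p = 0.0379), a call lost whichever single library was left out.

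Several genes that act on procollagen outside the cell rose. Of 14 tested genes of procollagen trimming and crosslinking 5 rose and none fell, where 7.67% of all genes tested rose and 7.86% fell. The median over the 14 was 0.13, or 0.06 after the GC and length correction. Adamts2, which removes the amino end of procollagen, rose by 0.40 with 17.3, 15.7 and 15.5 FPKM in Ppp6r3 cKO, against 12.6, 11.9 and 12.2 FPKM in wild type (limma adjusted p = 0.00385). Lox, the lysyl oxidase that crosslinks fibrils, rose by 0.32 with 7.56, 7.87 and 7.45 FPKM in Ppp6r3 cKO, against 6.13, 5.88 and 6.27 FPKM in wild type (limma adjusted p = 0.00868). Adamts14 rose by 0.34 (limma adjusted p = 0.0247), which did not pass after the GC and length correction (0.23) or without 5 of the 6 libraries. Dcn, Dpt, Lum and Fbln1 belong both to the interstitial stroma markers and to the fibril partners, so these lists overlap. Of 25 fibril partners 13 rose, Dcn and Dpt among them, 11 did not pass and 1 fell (median 0.21). The largest rises were those of Fbln2 (0.51), an elastic fibre protein, Fbn1 (0.43), which encodes the microfibril protein fibrillin, and Thbs2 (0.41), while Fmod, which encodes the fibril-binding fibromodulin, fell by 0.22 (lost without 5 of the 6 libraries).

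Some receptors and proteases of collagen rose as well. Of 11 tested collagen receptors 3 rose and none fell (median 0.20), where 7.67% of all genes tested rose and 7.86% fell. Ddr1, a receptor tyrosine kinase for collagen, rose by 0.30 with 61.4, 55.7 and 54.5 FPKM in Ppp6r3 cKO, against 47.1, 46.6 and 45.2 FPKM in wild type (limma adjusted p = 0.00766). Itgb1, the common chain of collagen-binding integrins, rose by 0.19, and Adgrg1, a receptor for type III collagen, by 0.35 (limma adjusted p = 0.00934 and 0.00451). Of 12 tested genes of collagen degradation and its inhibitors 4 rose and none fell (median 0.18). Mmp15 rose by 0.67 with 3.06, 2.44 and 2.46 FPKM in Ppp6r3 cKO, against 1.54, 1.73 and 1.601 FPKM in wild type (limma adjusted p = 0.0103), Mmp2, a gelatinase that cleaves type IV collagen, by 0.30, and its inhibitor Timp2 by 0.30 (limma adjusted p = 0.00358 and 0.00285).

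Markers of the other testis cell types listed differed in how they moved. Over all genes tested 7.67% rose and 7.86% fell. The shares that rose among Leydig (10%) and germ cell markers (8.33%) were near the first. Peritubular myoid cells wrap the tubules and lay down their basement membrane with Sertoli cells. Of 10 myoid markers 2 rose and 3 fell (median -0.04), with a summed level of 589 to 619 FPKM in Ppp6r3 cKO libraries and 676 to 703 FPKM in wild-type libraries. Acta2, smooth muscle actin, makes up most of that sum, and the other 9 myoid markers summed to 134.2 to 138.4 FPKM in Ppp6r3 cKO libraries and 134.9 to 135.9 FPKM in wild-type libraries. Of 14 Sertoli markers 2 rose and 3 fell (median -0.02), with 3379 to 3521 FPKM in Ppp6r3 cKO libraries and 3400 to 3485 FPKM in wild-type libraries. Of 12 macrophage and leukocyte markers 4 rose and none fell (median 0.21), with 169 to 183 FPKM in Ppp6r3 cKO libraries and 129 to 136 FPKM in wild-type libraries. Of 10 Leydig markers 1 rose and 1 fell (median 0.07), with 305 to 309 FPKM in Ppp6r3 cKO libraries and 283 to 298 FPKM in wild-type libraries. Without Hsd3b1, its most abundant marker, the Leydig sums overlapped, at 182.7 to 186.4 FPKM in Ppp6r3 cKO libraries and 180.7 to 192.8 FPKM in wild-type libraries. Both sums without 1 marker were added after the values were seen. Of 12 germ cell markers 1 rose and 5 fell (median -0.08), with 668 to 717 FPKM in Ppp6r3 cKO libraries and 849 to 888 FPKM in wild-type libraries. No marker of these lists was at 0 in every library, and their part in the collagen result was not tested.

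**Figure D5:**
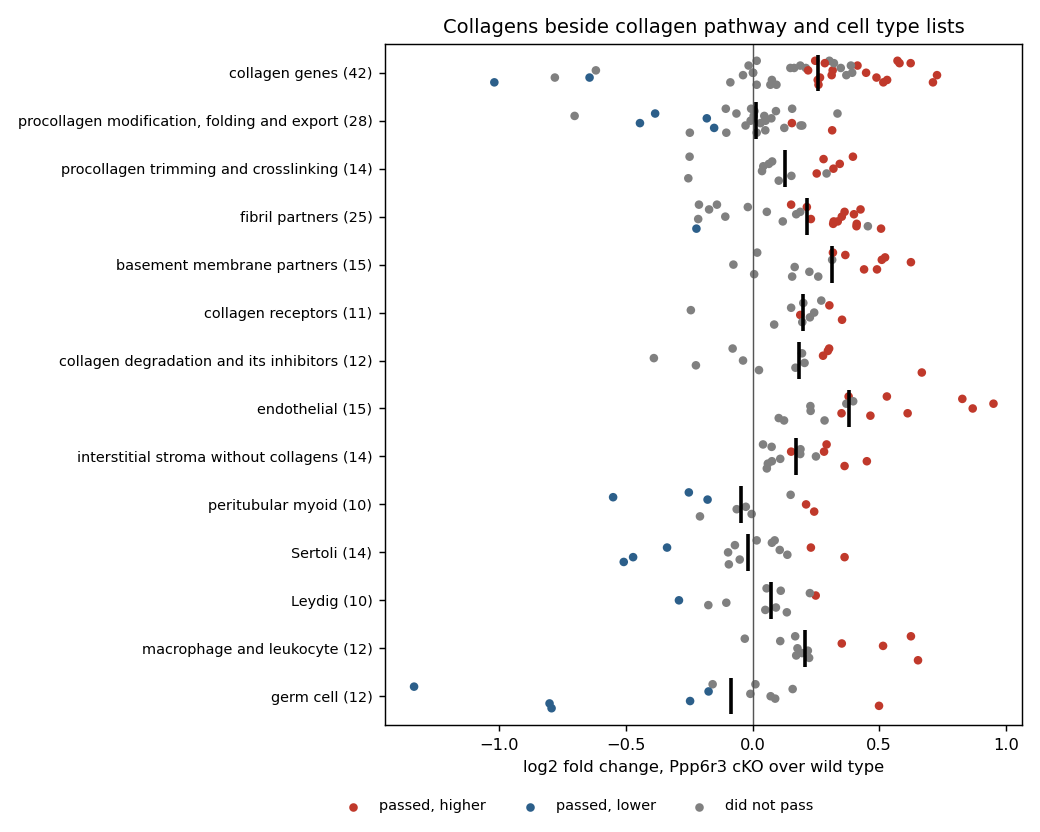
Log2 fold change of Ppp6r3 cKO over wild type for each tested gene (points) of the collagens, the collagen pathway lists and the cell type lists, with the number tested in brackets and the median as a vertical line. Medians are 0.26 for collagens, 0.38 for endothelial markers, 0.31 for basement membrane partners and 0.01 for procollagen modification genes.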

How the data were processed

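RNA of whole testis was compared between 3 Ppp6r3 cKO and 3 wild-type samples, grouped by their titles. Per the labels' protocols, total RNA was taken with TRIzol and libraries were made with a stranded KAPA mRNA kit. Alignment of paired-end reads used HISAT2 2.0.5 and mm10, per the series' design text. DESeq2 is another tool listed in the submitters' processing notes. The counter, its strand setting and its gene models are not given in the sources used here. Overlapping genes may therefore share reads (at most 6.07% of a collagen's exon length overlaps another gene's exons).

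The deposited values are FPKM made by the authors, although the table is named as raw counts. Each value times the GENCODE M21 exon length divided by 1 step per library came out whole (tolerance 0.01) in all libraries for 31625 of 32589 genes above 0 (97.0%), and for the other 964 with another length. The steps gave the depth and the fragments per gene, which are inferred and cover counting error only. Genes with at least 10 fragments in at least 3 libraries were tested as log2(FPKM + 0.1) with limma 3.58.1 in R 4.3.3 (trend, robust, 2-sided, Benjamini-Hochberg over all genes tested, threshold 0.05). Fold changes are on that scale and understate low genes. The fit was tested on simulated data. For 3 libraries a group, the smallest p an exact permutation test allows is 0.1.

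The members and gene lists were chosen with earlier results of these data known. Named were all members that passed, the most abundant of each class, all type IV genes, and up to 3 passing genes per direction of each pathway list. No libraries of the same group agreed within counting error (chi-square over degrees of freedom 2.18 to 4.19). Alternatives changed the pseudocount, filter, model (voom), scaling, robust estimation, threshold and libraries, and added a replicate block or a correction by splines (5 degrees of freedom) of each library's deviations on GC and on length. Tables were handled in Python 3.11.15 with pandas 2.3.3 and numpy 2.4.6.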

Additional observations from a re-analysis of the deposited data

How the results depend on the processing

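The count of collagens called higher, 18 as reported, stayed within 14 to 21 over the alternatives tried, and 14 of the 18 calls held both without each library in turn and under all 12 changes of model, scaling, filter, pseudocount, block or composition. The count called lower, 2 as reported, was 4 with a pseudocount of 1, with voom on recovered fragments, with voom and trimmed-mean factors and after the GC and length correction, and 1 with no filter on low values and at an adjusted p under 0.01. The median log2 fold change, 0.26 as reported, was 0.15 with a pseudocount of 1, and 0.18 after the GC and length correction with or without the replicate block. Leaving out each library gave 15 to 17 called higher, 2 to 3 called lower and medians of 0.241 to 0.266. Same-numbered libraries did not deviate together (correlations of -0.0073 to 0.014). No pairing by replicate number was visible, though this cannot show that the samples were unpaired. With the replicate number as a block 18 were called higher and 2 lower, and together with the GC and length correction 15 and 2, with Col16a1, Col6a2 and Col6a3 not called. No alternative reversed a called gene. Apart from the pseudocount and the stricter threshold, which act by construction, the cause was not tested. Depth limits the members under about 0.5 FPKM, such as Col28a1, with 9 to 20 fragments per library.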
